A study of Mus musculus with 6 samples.

Results

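The integrin and laminin genes were chosen by symbol, as all genes that begin with Itga, Itgb and a number, or Lam with a, b or c and a number, and 40 of the 19938 genes with a probe set named for them alone met that rule. They comprised 27 integrin chains (18 alpha and 9 beta), 10 laminin chains and 3 genes named for a protein that binds an integrin tail, Itgb1bp1, Itgb1bp2 and Itgb3bp, which encode no integrin. All 40 were measured, and none was removed by a filter on low values.

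Arrays measured RNA of 6 colon tumours of mice that had received 2% (w/v) dextran sodium sulfate, a colon irritant that promotes tumours, at 6 weeks of age and whose tumours were collected at 20 weeks. Of these, 3 tumours had the genotype Dnmt1chip/c; ApcMin/+, with a hypomorphic allele (chip) and a knockout allele (c) of the maintenance DNA methyltransferase gene Dnmt1. The 3 control tumours had the genotype Dnmt1chip/+; ApcMin/+, so that they too carried a chip allele and the truncated tumour suppressor allele ApcMin. The first genotype is described as having less methylated pericentromeric satellite repeats, and the second as having the genomic methylation of wild-type mice. All were first-generation hybrids, with the c allele and ApcMin from the C57BL/6 parent and the chip allele from the 129Sv4 parent. The alleles were inherited and not limited to a cell type, so stroma and leukocytes carried them as well as the tumour epithelium. Nothing in the labels says that the tumours of a genotype came from separate mice, and the descriptions of all 3 Dnmt1chip/c tumours share a number, so p-values describe the spread between these tumours, which may be that within a mouse.

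Integrins are cell surface receptors made of an alpha and a beta chain that tie the extracellular matrix, or another cell, to the cytoskeleton. Laminins are trimers of an alpha, a beta and a gamma chain that build the sheet of basement membrane on which epithelium, muscle and vessels sit, and several integrins are their receptors. In the colon, hemidesmosomes of epithelial cells use the Itga6 and Itgb4 pair, while leukocytes use integrins built on Itgb2 or Itgb7, and fibroblasts, muscle and vessels use others to hold collagen, fibronectin and laminin. The members were therefore described as epithelial, leukocyte, and stromal or platelet integrins, widely expressed integrins, and laminins.

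Values are centred log2 values: 0 is the median of the 6 tumours for that gene, so a value shows how a tumour differs from the others and gives no level. A difference is the Dnmt1chip/c mean minus the Dnmt1chip/+ mean, and a gene is said to have risen or fallen where limma's p, adjusted by Benjamini and Hochberg's method across the 19938 genes, was under 0.05. No label gives the log base, so the folds printed depend on an inferred base of 2. Dnmt1 itself had values of -0.37, -0.48 and -0.42 in the Dnmt1chip/c tumours, against 0.44, 0.52 and 0.37 in the Dnmt1chip/+ tumours, and fell by 0.87 (limma, adjusted p = 0.000313). The probes' positions relative to either mutation are not known here, so the value is no test of the labels. All 11 measured epithelial markers were taken to have log2 values of 8 or above before centring, an inference from the step of the values. In whole tumours, fewer cells of a type and less RNA per cell cannot be told apart.

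Promoter sequences are shown for the 5 changed members with the largest differences among those with a window in the RefSeq table. These genes moved in opposite directions between tumours that differ in the genotype of a DNA methyltransferase gene. CpG, the site of DNA methylation, is in capitals. Each window of 300 bases runs 5′ to 3′ on the gene's strand, from 250 bases before its outermost start to 50 after it, on GRCm38.p6. Itgb6 lies at chr2:60722554-60722853 on the minus strand, Itga3 at chr11:95076665-95076964 on the minus strand and Itga2 at chr13:114932051-114932350 on the minus strand. Itgb8 lies at chr12:119238227-119238526 on the minus strand and Lamb1 at chr12:31265043-31265342 on the plus strand.
Itgb6: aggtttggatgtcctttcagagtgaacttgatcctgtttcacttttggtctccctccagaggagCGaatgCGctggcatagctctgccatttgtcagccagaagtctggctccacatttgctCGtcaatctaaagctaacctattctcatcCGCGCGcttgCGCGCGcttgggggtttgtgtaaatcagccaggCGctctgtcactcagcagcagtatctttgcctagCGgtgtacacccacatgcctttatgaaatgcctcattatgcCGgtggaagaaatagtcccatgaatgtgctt
Itga3: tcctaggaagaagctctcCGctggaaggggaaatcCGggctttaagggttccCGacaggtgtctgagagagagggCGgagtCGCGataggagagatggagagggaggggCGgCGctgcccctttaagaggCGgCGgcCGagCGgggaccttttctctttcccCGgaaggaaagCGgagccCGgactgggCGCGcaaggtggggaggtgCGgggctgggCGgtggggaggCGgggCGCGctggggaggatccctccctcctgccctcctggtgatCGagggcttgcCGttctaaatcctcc
Itga2: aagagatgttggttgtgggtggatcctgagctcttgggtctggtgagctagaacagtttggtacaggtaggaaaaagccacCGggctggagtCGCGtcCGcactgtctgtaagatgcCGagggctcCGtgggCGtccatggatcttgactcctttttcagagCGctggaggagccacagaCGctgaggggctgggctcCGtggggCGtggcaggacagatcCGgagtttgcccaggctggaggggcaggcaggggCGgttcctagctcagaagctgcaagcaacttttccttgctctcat
Itgb8: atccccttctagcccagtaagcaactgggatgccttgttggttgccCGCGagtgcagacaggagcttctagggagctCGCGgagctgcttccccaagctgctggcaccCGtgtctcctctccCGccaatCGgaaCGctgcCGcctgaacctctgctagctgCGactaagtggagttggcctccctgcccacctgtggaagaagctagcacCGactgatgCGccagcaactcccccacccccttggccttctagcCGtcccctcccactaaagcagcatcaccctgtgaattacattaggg
Lamb1: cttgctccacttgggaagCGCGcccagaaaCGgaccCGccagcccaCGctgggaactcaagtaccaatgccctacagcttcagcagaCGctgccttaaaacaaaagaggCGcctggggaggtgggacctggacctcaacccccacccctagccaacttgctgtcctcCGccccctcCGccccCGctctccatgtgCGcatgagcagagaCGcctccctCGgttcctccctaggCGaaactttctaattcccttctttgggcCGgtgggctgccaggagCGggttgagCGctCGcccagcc

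The windows held 12 CpG in Itgb6, 24 in Itga3 and 13 in Itga2, which were higher in the Dnmt1chip/c tumours, and 13 in Itgb8 and 18 in Lamb1, which were lower. Among the 26 members with a window, the 3 that rose had 12 to 24 CpG, the 6 that fell had 4 to 20 and the 17 that did not pass had 1 to 27. The median over all 32851 windows was 7, with quartiles of 3 and 20. CpG number thus overlapped between members that rose and members that fell. The Sp1 motif GGGCGG, searched on both strands, contains a CpG itself and occurred in 11 of the 26 windows (35.7% of all windows), 4 of them of changed members. The AP-1 motif TGANTCA, which reads the same on both strands, occurred in 2 of the 26 (7.81% of all windows), Itga9 and Itgax, neither of which passed the test. No methylation was measured in these data.

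As a set, the members differed about as often as other genes: 14 of 40 passed the test (35%, against 32% of all genes), 5 higher (12.5%, against 10.7%) and 9 lower (22.5%, against 21.3%). In 18 of the 40 the values of the 2 genotypes did not overlap (45%, against 46.4% of all genes). Counts by role, with roles assigned with earlier results known and no test between them, were as follows. Of the 6 epithelial integrins 4 rose and 1 fell (median difference 0.44), of the 9 stromal and platelet integrins 1 rose and 3 fell (median -0.40), of the 6 laminins that are shared or belong to muscle and vessels 4 fell (median -0.62), and of the 9 leukocyte integrins none passed (median -0.06, 0 at an unadjusted p under 0.05). The median over all genes was -0.0058, and over genes taken to have log2 values of 8 or above before centring it was -0.12. Each of the 14 had an exact permutation p of 0.1, two-sided, the smallest that 3 against 3 tumours allows. Of the 40 members 27 were taken to have log2 values of 8 or above before centring, and in a fit over such genes only, 12 of 27 members passed, where 53.9% of those genes did.

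**Figure D1:**
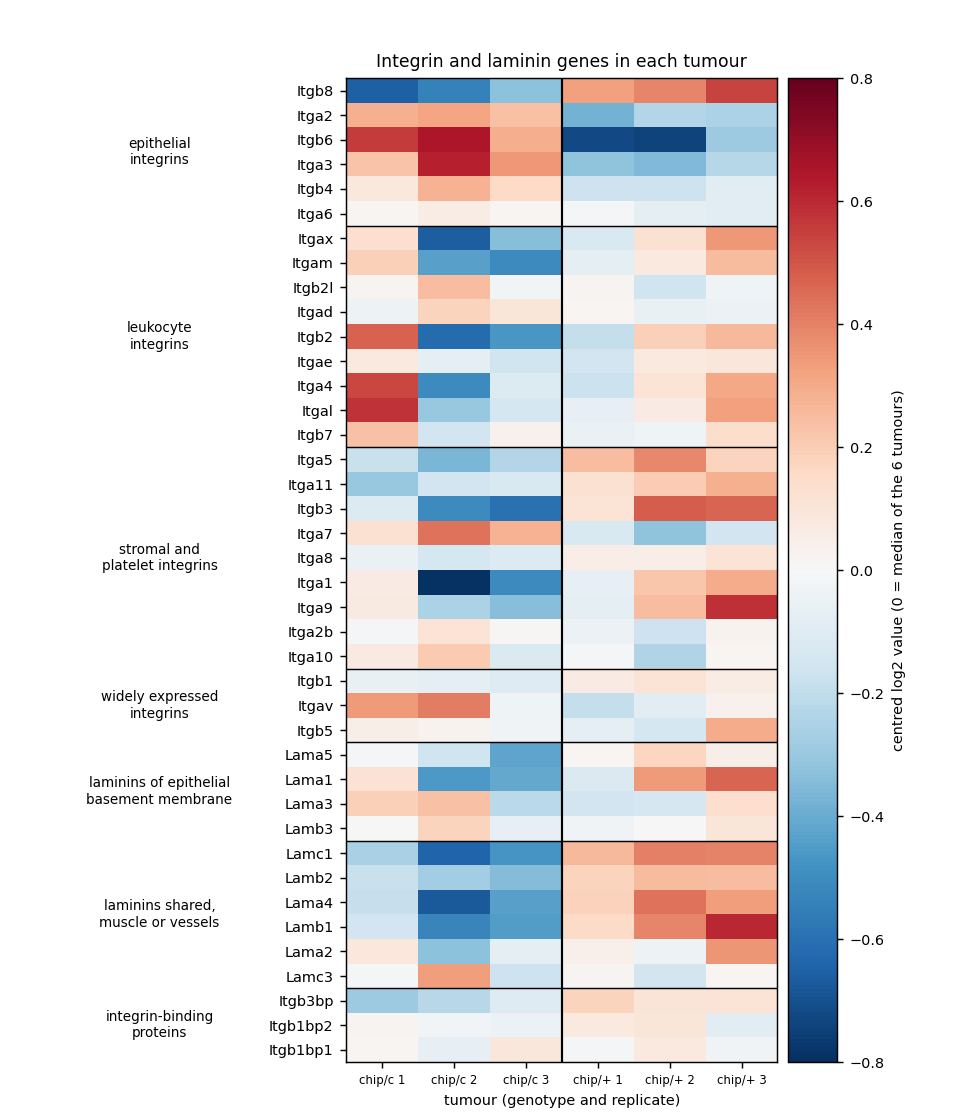
Centred log2 values of the 40 genes (rows, grouped by role) in the 3 Dnmt1chip/c tumours (left) and the 3 Dnmt1chip/+ tumours (right); red is above and blue below the median of the 6 tumours. Itgb6 and Itga3 are red in all Dnmt1chip/c tumours and Lamc1 and Lama4 blue, while for leukocyte integrins other than Itgad and Itgb2l Dnmt1chip/c tumour 1 is above tumours 2 and 3.

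Of the epithelial integrins, Itgb6 had the largest rise. It encodes the beta chain that pairs with the Itgav product on epithelium and activates latent TGF-beta. Its values were 0.56, 0.65 and 0.29 in the Dnmt1chip/c tumours, against -0.72, -0.74 and -0.29 in the Dnmt1chip/+ tumours. All Dnmt1chip/c tumours lay above all control tumours, with means of 0.50 ± 0.18 and -0.58 ± 0.25 (SD, n = 3 each) and a difference of 1.08 ± 0.15 (SE), 2.11-fold (limma, adjusted p = 0.00215). Itga3, whose product with that of Itgb1 is an epithelial laminin receptor, had values of 0.23, 0.62 and 0.34 in the Dnmt1chip/c tumours, against -0.32, -0.36 and -0.23 in the Dnmt1chip/+ tumours. It was higher by 0.70 ± 0.10 (SE), 1.63-fold (limma, adjusted p = 0.00314), with no overlap.

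Itga2, the alpha chain of an epithelial and platelet collagen receptor, had values of 0.29, 0.31 and 0.24 in the Dnmt1chip/c tumours, against -0.38, -0.24 and -0.25 in the Dnmt1chip/+ tumours. The tumours of each genotype lay close together, and Itga2 rose by 0.57 ± 0.06 (SE), 1.48-fold (limma, adjusted p = 0.00101). Itgb4, the hemidesmosome chain with a long cytoplasmic tail, had values of 0.08, 0.28 and 0.16 in the Dnmt1chip/c tumours, against -0.16, -0.17 and -0.08 in the Dnmt1chip/+ tumours. Its rise was small, 0.31 ± 0.07 (SE), 1.24-fold (limma, adjusted p = 0.0134), and no longer passed without Dnmt1chip/+ tumour 1 (0.30, adjusted p = 0.0586). Its partner Itga6 did not pass. Itga6 had values of 0.02, 0.06 and 0.02 in the Dnmt1chip/c tumours, against -0.02, -0.07 and -0.09 in the Dnmt1chip/+ tumours, a difference of 0.09 with a 95% interval from -0.03 to 0.22 (limma, adjusted p = 0.245). The genotypes did not overlap in Itga6 either, though the gap between them was narrow.

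Itgb8 went the other way. Its product is another partner of the Itgav chain that activates latent TGF-beta and is found on epithelial, neural and some immune cells. It had values of -0.65, -0.54 and -0.33 in the Dnmt1chip/c tumours, against 0.33, 0.39 and 0.54 in the Dnmt1chip/+ tumours. The gap between the genotypes was wider than the spread within either, and Itgb8 fell by 0.93 on the log2 scale (SE 0.10), 1.90-fold lower (limma, adjusted p = 0.000929). Beside these integrins, 8 of 11 measured epithelial markers rose and none fell, where 10.7% of all genes rose and 21.3% fell. Among those that rose were Vil1 (1.02), Cldn7 (0.52) and Krt19 (0.38). Cldn4 differed by -0.21 (limma, adjusted p = 0.0504), Epcam by 0.06 and Krt18 by -0.02, and none of them passed. Over genes taken to lie at log2 values of 8 or above only, 8 markers rose and 1 fell, where 53.9% of such genes passed in either direction. Summed over the 11 markers, centred values were 1.205 to 2.602 in the Dnmt1chip/c tumours, against -1.45 to -1.34 in the Dnmt1chip/+ tumours. Without Dnmt1chip/+ tumour 1, 5 markers rose, and without Dnmt1chip/c tumour 1, 7 rose and 1 fell. In these fits 21.1% and 33.1% of all genes passed in either direction, against 32% with all tumours. The part of the epithelial share in the rise of Itgb6, Itga3, Itga2 and Itgb4 was not tested, and as values are centred no marker's level can be read as near 0.

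**Figure D2:**
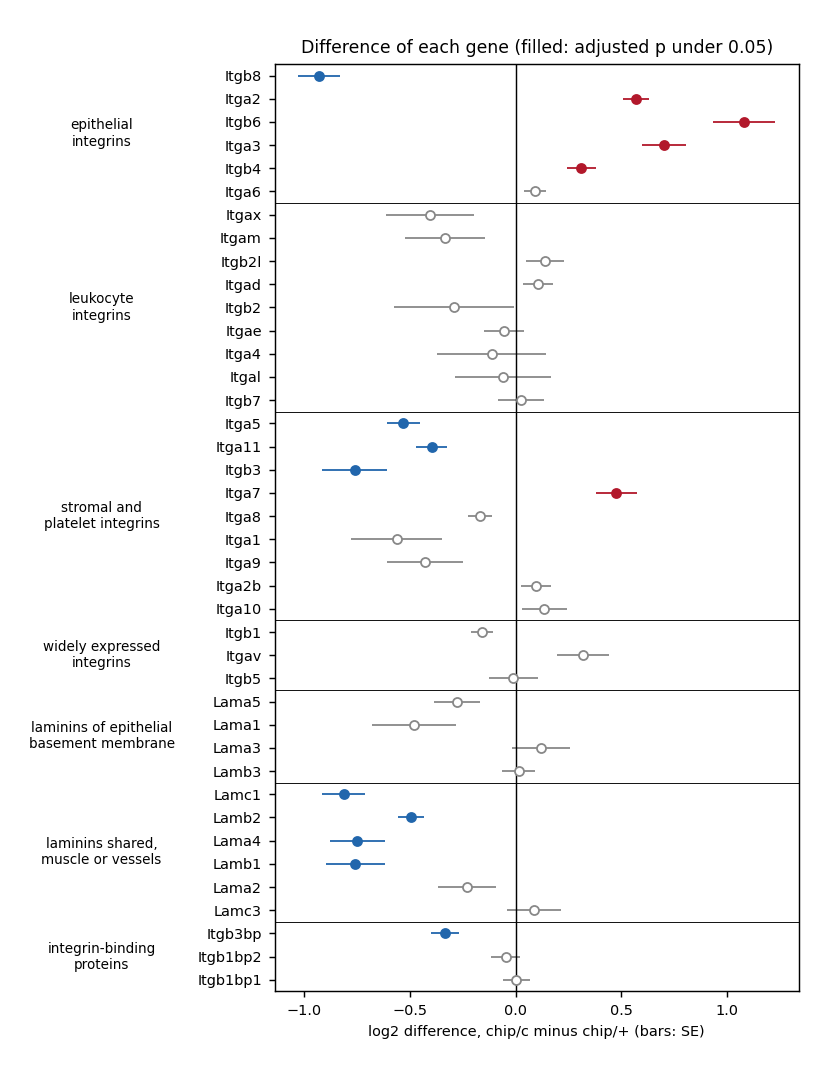
Difference of each gene on the log2 scale, Dnmt1chip/c minus Dnmt1chip/+, with its standard error; filled red points rose, filled blue points fell and open points did not pass. Among epithelial integrins Itgb6 stands at 1.08 and Itgb8 at -0.93, and 4 of the 6 laminins that are shared or of muscle and vessels lie between -0.81 and -0.49.

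The 3 widely expressed chains did not pass. Itgb1, the common beta chain of matrix receptors, had values of -0.06, -0.08 and -0.11 in the Dnmt1chip/c tumours, against 0.06, 0.11 and 0.06 in the Dnmt1chip/+ tumours. The genotypes did not overlap, and the difference was -0.16 (95% interval -0.28 to -0.04; limma, adjusted p = 0.0554); over genes taken to lie at log2 values of 8 or above only, limma's adjusted p was 0.035. Itgav, the alpha chain of the receptors for RGD motifs, had values of 0.34, 0.41 and -0.03 in the Dnmt1chip/c tumours, against -0.19, -0.09 and 0.03 in the Dnmt1chip/+ tumours. Dnmt1chip/c tumour 3 lay among the control tumours, and the difference was 0.32 (limma, adjusted p = 0.097). Without that tumour it was 0.45 (adjusted p = 0.0151). Itgb5, a vitronectin receptor chain, differed by -0.01 (95% interval -0.29 to 0.26).

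Set side by side, the estimated differences of the chains lay close together in some pairs and far apart in others, and no test compared them. Itga8 and Itgb1 stood at -0.17 and -0.16, Itgam and Itgb2 at -0.34 and -0.29, and Itgax and Itgb2 at -0.40 and -0.29, none of which passed. The Itgav partners Itgb6, Itgb3 and Itgb8 had differences of 1.08, -0.76 and -0.93, with Itgb5 at -0.01 and Itgav itself at 0.32. The Itgb1 partners ran from 0.70 for Itga3, 0.57 for Itga2 and 0.48 for Itga7 to -0.40 for Itga11, -0.53 for Itga5 and -0.56 for Itga1, which did not pass, while Itgb1 stood at -0.16. These pairs are textbook pairings of chains, and no protein or pairing was measured.

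**Figure D3:**
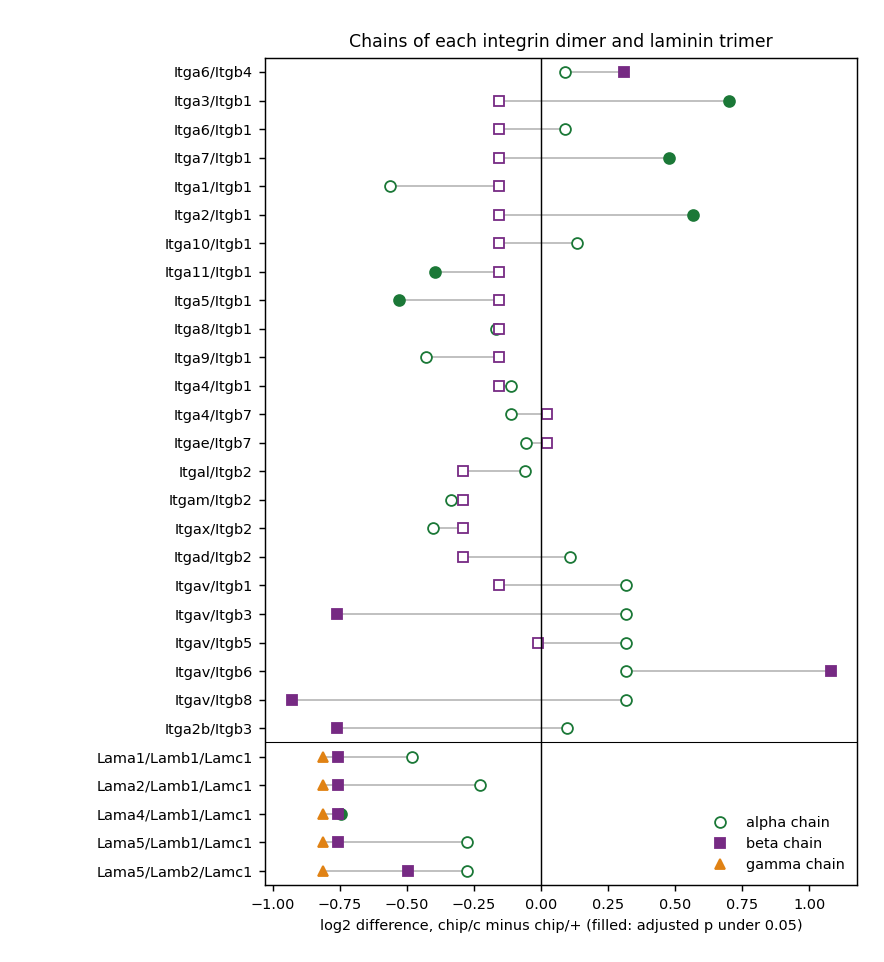
Differences of the chains of 24 integrin dimers (upper part) and 5 laminin trimers (lower part) on the log2 scale, Dnmt1chip/c minus Dnmt1chip/+; circles are alpha, squares beta and triangles gamma chains, filled where the gene passed the test. Itgav lies at 0.32 in each of its 5 pairs while its partners run from -0.93 (Itgb8) to 1.08 (Itgb6), and Lamb1 and Lamc1 lie together at -0.76 and -0.81.

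Among stromal and platelet integrins, Itgb3, a chain of the vitronectin receptor of endothelium and of the platelet fibrinogen receptor, fell most. It had values of -0.11, -0.51 and -0.60 in the Dnmt1chip/c tumours, against 0.11, 0.48 and 0.47 in the Dnmt1chip/+ tumours. Tumour 1 of each genotype lay nearest to the other genotype, and Itgb3 fell by 0.76 (SE 0.15), 1.69-fold lower (limma, adjusted p = 0.00948). Itga2b, its partner on platelets, had values of -0.01, 0.11 and 0.01 in the Dnmt1chip/c tumours, against -0.05, -0.17 and 0.03 in the Dnmt1chip/+ tumours. These overlapped, with a difference of 0.10 (adjusted p = 0.35). Of 5 platelet markers 1 fell, Ppbp (-1.06), and none rose, where 21.3% of all genes fell. Only 1 of the 5 was taken to have log2 values of 8 or above before centring, and Ppbp was not that one. Summed values of the 5 were -0.95 to -0.11 in the Dnmt1chip/c tumours, against 0.31 to 0.84 in the Dnmt1chip/+ tumours.

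Itga5, the alpha chain of the fibronectin receptor, had values of -0.18, -0.37 and -0.23 in the Dnmt1chip/c tumours, against 0.24, 0.38 and 0.18 in the Dnmt1chip/+ tumours. It fell by 0.53 (SE 0.08), 1.44-fold lower (limma, adjusted p = 0.00309), with no overlap. Itga11, a collagen receptor chain of fibroblasts, had values of -0.30, -0.16 and -0.12 in the Dnmt1chip/c tumours, against 0.12, 0.20 and 0.28 in the Dnmt1chip/+ tumours. It fell by 0.40 (SE 0.07), 1.32-fold lower (limma, adjusted p = 0.00673), again with no overlap.

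Itga7, the alpha chain of the laminin receptor of muscle, rose while the others of its group that changed fell. Its values were 0.12, 0.43 and 0.28 in the Dnmt1chip/c tumours, against -0.12, -0.32 and -0.15 in the Dnmt1chip/+ tumours. The rise was 0.48 ± 0.10 (SE), 1.39-fold (limma, adjusted p = 0.00979), and all Dnmt1chip/c tumours lay above all control tumours. Beside it 5 of 11 smooth muscle markers fell and none rose, where 21.3% of all genes fell. Among those that fell were Kcnmb1 (-0.85), Tagln (-0.58) and Actg2 (-0.66). Summed values of the 11 were -2.85 to -0.85 in the Dnmt1chip/c tumours, against 1.15 to 3.10 in the Dnmt1chip/+ tumours. Only 3 fell without Dnmt1chip/c tumour 2 or 3, where 24.6% and 26.5% of all genes passed in either direction, against 32% with all tumours. The part of muscle content in the values of Itga7 was not tested.

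The remaining 5 of the group did not pass. Itga8, a nephronectin receptor chain of muscle-like stromal cells, differed by -0.17 (adjusted p = 0.0539) with no overlap, and Itga9, a tenascin receptor chain, by -0.43 (adjusted p = 0.116), or -0.59 without Dnmt1chip/+ tumour 1 (adjusted p = 0.0453). Itga1, a collagen receptor chain, had values of 0.07, -0.79 and -0.51 in the Dnmt1chip/c tumours, against -0.07, 0.22 and 0.30 in the Dnmt1chip/+ tumours. Tumour 1 of each genotype overlapped with the other, and the difference was -0.56 (adjusted p = 0.0877), or -0.80 without Dnmt1chip/c tumour 1 (adjusted p = 0.00607). Itga10, a cartilage collagen receptor chain, differed by 0.14 (adjusted p = 0.391).

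The laminin chains that are common to many trimers fell together. Lamc1, the gamma chain of most laminins, had values of -0.26, -0.64 and -0.47 in the Dnmt1chip/c tumours, against 0.26, 0.40 and 0.40 in the Dnmt1chip/+ tumours. The means were -0.46 ± 0.19 and 0.35 ± 0.08 (SD, n = 3 each), and Lamc1 fell by 0.81 (SE 0.10), 1.76-fold lower (limma, adjusted p = 0.00171). Lamb1, the beta chain that joins it in most tissues, had values of -0.15, -0.53 and -0.45 in the Dnmt1chip/c tumours, against 0.15, 0.39 and 0.60 in the Dnmt1chip/+ tumours. It fell by 0.76 (SE 0.14), 1.69-fold lower (limma, adjusted p = 0.00674), with no overlap.

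Lama4, the alpha chain of laminin-411 of vessel walls, had values of -0.18, -0.67 and -0.43 in the Dnmt1chip/c tumours, against 0.18, 0.44 and 0.33 in the Dnmt1chip/+ tumours. It fell by 0.75 (SE 0.13), 1.68-fold lower (limma, adjusted p = 0.00539). Lamb2, which replaces Lamb1 in mature basement membranes, had values of -0.18, -0.28 and -0.34 in the Dnmt1chip/c tumours, against 0.18, 0.25 and 0.25 in the Dnmt1chip/+ tumours. It fell by 0.49 (SE 0.06), 1.41-fold lower (limma, adjusted p = 0.00179), and neither gene overlapped between the genotypes. Lama2, the alpha chain of laminin-211 of muscle, had values of 0.08, -0.33 and -0.08 in the Dnmt1chip/c tumours, against 0.04, -0.04 and 0.36 in the Dnmt1chip/+ tumours, and differed by -0.23 (adjusted p = 0.262). Lamc3, a gamma chain of nerve and skin, differed by 0.09 (adjusted p = 0.668).

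The 4 measured laminins of epithelial basement membrane did not pass. Lama5, the alpha chain of laminin-511 and laminin-521, had values of -0.02, -0.16 and -0.42 in the Dnmt1chip/c tumours, against 0.02, 0.17 and 0.05 in the Dnmt1chip/+ tumours. The genotypes did not overlap and the difference was -0.28 (limma, adjusted p = 0.0969). Lama1, an embryonic chain that is also found in the intestine, had values of 0.11, -0.46 and -0.41 in the Dnmt1chip/c tumours, against -0.11, 0.34 and 0.46 in the Dnmt1chip/+ tumours, and differed by -0.48 (adjusted p = 0.111). Lama3 and Lamb3, laminin chains found under epithelium, differed by 0.12 (95% interval -0.21 to 0.45) and 0.01 (95% interval -0.17 to 0.20). All 4 calls among laminins held without each tumour in turn.

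Many but not all markers of fibroblasts and endothelium were lower in the same tumours as these laminins and stromal integrins. Of all genes 21.3% fell and 10.7% rose. Of 15 fibroblast markers 8 fell and 1 rose, with Pdgfrb at -1.22, Pdgfra at -0.89 and Col6a3 at -0.78 against Fap at 0.33. Their summed values were -6.26 to -1.31 in the Dnmt1chip/c tumours, against 1.11 to 5.56 in the Dnmt1chip/+ tumours. Of 14 endothelial markers 8 fell and 1 rose, with Emcn at -0.91 and Cdh5 at -0.91 against Tek at 0.55, and summed values were -4.64 to -0.63 in the Dnmt1chip/c tumours, against 0.85 to 2.82 in the Dnmt1chip/+ tumours. Without single tumours the markers that fell numbered 4 to 11 for fibroblasts and 4 to 10 for endothelium, the most without Dnmt1chip/c tumour 1. In these fits 21.1% to 33.1% of all genes passed in either direction, against 32% with all tumours. The 4 fibroblast markers were left without Dnmt1chip/c tumour 2 or 3 or Dnmt1chip/+ tumour 2 (5 without Dnmt1chip/+ tumour 3), and the 4 endothelial markers without Dnmt1chip/c tumour 3 or Dnmt1chip/+ tumour 2 or 3 (5 without Dnmt1chip/c tumour 2). The part of fewer stromal cells in the fall of Lamc1, Lamb1, Lama4, Lamb2, Itga5, Itga11 and Itgb3 was not tested. Of 7 markers of enteric glia and nerve 1 rose, Erbb3 (0.33; limma, adjusted p = 0.0408), and none fell. Erbb3 was the only 1 of the 7 taken to have log2 values of 8 or above before centring. None of the 7 rose without Dnmt1chip/c tumour 3 or without any single Dnmt1chip/+ tumour, and 1 fell without Dnmt1chip/+ tumour 2.

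None of the 9 leukocyte integrins passed the test. In 7 of them Dnmt1chip/c tumour 1 was higher than tumours 2 and 3, the exceptions being Itgad and Itgb2l. Itgb2, the beta chain common to the leukocyte integrins, had values of 0.47, -0.62 and -0.47 in the Dnmt1chip/c tumours, against -0.19, 0.19 and 0.26 in the Dnmt1chip/+ tumours. Tumour 1 was the highest of the 6 and tumours 2 and 3 were the lowest, and the difference was -0.29 (95% interval -0.96 to 0.38). Itgal, the alpha chain of the lymphocyte receptor for ICAM proteins, had values of 0.58, -0.30 and -0.14 in the Dnmt1chip/c tumours, against -0.07, 0.07 and 0.33 in the Dnmt1chip/+ tumours. Itga4, the chain of the VCAM-1 receptor, had values of 0.53, -0.51 and -0.11 in the Dnmt1chip/c tumours, against -0.17, 0.11 and 0.31 in the Dnmt1chip/+ tumours. Tumour 1 was again the highest of the 6 for both genes.

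The myeloid chains Itgam and Itgax, of complement receptors, had the largest negative differences of the group. Itgam had values of 0.19, -0.43 and -0.51 in the Dnmt1chip/c tumours, against -0.08, 0.08 and 0.25 in the Dnmt1chip/+ tumours. Itgax had values of 0.14, -0.66 and -0.34 in the Dnmt1chip/c tumours, against -0.12, 0.12 and 0.35 in the Dnmt1chip/+ tumours. In both, tumours 2 and 3 lay below and tumour 1 among the control tumours, with differences of -0.34 (adjusted p = 0.232) and -0.40 (adjusted p = 0.193). Without Dnmt1chip/c tumour 1, 3 of the 9 passed as lower, Itgam at -0.56 (limma, adjusted p = 0.00937), Itgb2 at -0.63 (adjusted p = 0.0176) and Itgax at -0.62 (adjusted p = 0.0276). The members that fell then numbered 15 in all, where 9 fell with all tumours. Itga1, Lama1 (-0.67) and Lama5 (-0.37) were the other 3. In either direction 20 of 40 members passed in that fit, against 33.1% of all genes.

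**Figure D4:**
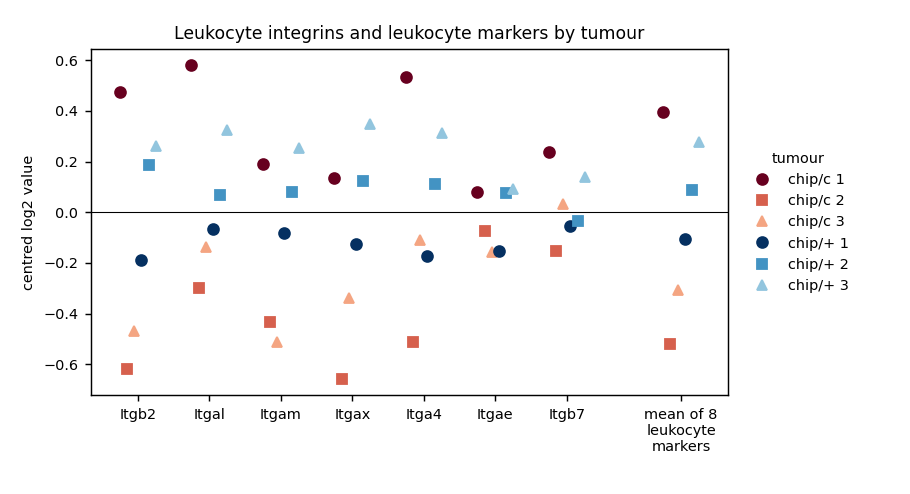
Centred log2 values of 7 leukocyte integrins and the mean of 8 general leukocyte markers in each tumour (red shades Dnmt1chip/c, blue shades Dnmt1chip/+). Dnmt1chip/c tumour 1 is the highest point for Itgb2, Itgal, Itga4, Itgb7 and the marker mean, where Dnmt1chip/c tumour 2 is the lowest.

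Among the integrins of gut-homing and intraepithelial lymphocytes, Itgae and Itgb7 had small differences. Itga4, the partner of Itgb7 on gut-homing lymphocytes, differed by -0.11 with a wide 95% interval (-0.72 to 0.50). Itgae, the alpha chain that binds E-cadherin, had values of 0.08, -0.08 and -0.16 in the Dnmt1chip/c tumours, against -0.15, 0.08 and 0.09 in the Dnmt1chip/+ tumours, a difference of -0.06 (95% interval -0.28 to 0.16). Its partner Itgb7 differed by 0.02 (95% interval -0.23 to 0.28) and was not among the genes taken to lie at log2 values of 8 or above. Itgad, averaged over 2 probe sets, and Itgb2l, a relative of Itgb2, differed by 0.11 and 0.14 (adjusted p = 0.306 and 0.289). The median SD of the 9 leukocyte integrins was 0.38 within the Dnmt1chip/c tumours and 0.17 within the Dnmt1chip/+ tumours, against 0.10 and 0.076 over all genes.

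Among marker lists, the general leukocyte markers also had Dnmt1chip/c tumour 1 highest and tumour 2 lowest. Dnmt1chip/c tumour 1 also had the highest list mean for T and NK cells (0.30), B and plasma cells (0.67), neutrophils (0.36) and dendritic cells (0.14). For macrophages it stood at 0.06, above Dnmt1chip/c tumours 2 and 3 (-0.68 and -0.40) but below Dnmt1chip/+ tumours 2 and 3 (0.15 and 0.40). The lowest tumour differed between the lists of single leukocyte types. The mean of 8 general leukocyte markers was 0.40, -0.52 and -0.31 in the Dnmt1chip/c tumours, against -0.11, 0.09 and 0.28 in the Dnmt1chip/+ tumours, with none passing and 5 lower without Dnmt1chip/c tumour 1. Beside 10.7% of all genes higher and 21.3% lower, macrophage markers fell in 4 of 11 cases. They fell in 8 without Dnmt1chip/c tumour 1 (33.1% of all genes passed) and in none without any other single tumour (21.1% to 27.5%). Their summed values were -7.47 to 0.63 in the Dnmt1chip/c tumours, against -0.23 to 4.38 in the Dnmt1chip/+ tumours. The other leukocyte lists held few calls, with 1 of 12 T and NK cell markers lower, 1 of 9 B and plasma cell markers higher, 2 of 8 dendritic cell markers higher, and 2 of 11 neutrophil markers lower and 1 higher. Without single tumours these counts lay between 0 and 2, except that 4 neutrophil markers fell without Dnmt1chip/c tumour 1. Summed values were -1.16 to 3.62, -0.98 to 6.00, -0.31 to 1.15 and -2.79 to 4.01 in the Dnmt1chip/c tumours for T and NK cells, B and plasma cells, dendritic cells and neutrophils. In the Dnmt1chip/+ tumours they were -0.62 to 1.73, -2.90 to 2.75, -0.58 to 0.80 and -0.68 to 1.84. The part of leukocyte number in the values of the leukocyte integrins was not tested.

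Of the genes named for binding integrin tails, Itgb3bp, also known as a protein of the centromere, fell. It had values of -0.29, -0.22 and -0.10 in the Dnmt1chip/c tumours, against 0.18, 0.10 and 0.11 in the Dnmt1chip/+ tumours, a fall by 0.33 (SE 0.07), 1.26-fold lower (limma, adjusted p = 0.0093). Itgb1bp1, which binds the tail of the Itgb1 product, differed by 0.0038 and the muscle chaperone gene Itgb1bp2 by -0.05, and neither passed.

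Genes that work with integrins were followed in 4 further lists, read against the same 10.7% of all genes higher and 21.3% lower. Most of them were taken to have log2 values of 8 or above, and in a fit over such genes only 53.9% passed in either direction. The median difference over all such genes was -0.12, so they leaned lower as a whole. Their share by direction is not given here. In that fit 6 of 33 genes of integrin activation and focal adhesion rose and 12 fell. Of 10 hemidesmosome and tetraspanin genes 6 rose and 3 fell. Of 15 basement membrane genes 11 fell and none rose, and of 21 ligand genes 12 fell and 3 rose. Of 39 measured genes of integrin activation and focal adhesion 6 rose and 12 fell (median -0.12). Fermt2, the kindlin of mesenchymal cells that activates integrins, fell by 1.41 (SE 0.17), with values of -0.47, -1.14 and -0.94 in the Dnmt1chip/c tumours, against 0.47, 0.49 and 0.73 in the Dnmt1chip/+ tumours. Rsu1 and Ilk, parts of the complex that links integrins to actin, fell by 0.84 and 0.49, and the actin crosslinker gene Flna fell by 0.65. Ptk2b, a kinase related to focal adhesion kinase, rose by 0.88 and Cib1, which binds the platelet alpha chain, by 0.62. These 6 had adjusted p-values between 0.00115 (Ptk2b) and 0.00392 (Flna). Without single tumours 3 to 6 rose and 9 to 13 fell, with 3 rising without Dnmt1chip/+ tumour 1.

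Of 12 hemidesmosome and tetraspanin genes 6 rose and 4 fell (median 0.20). Dst and Plec, the plakins that tie the Itgb4 tail to keratin, rose by 0.72 and 0.73 (adjusted p = 0.0017 and 0.00584). The epithelial tetraspanin gene Tspan8 rose by 1.68. Col17a1, the hemidesmosome collagen, Cd151, the tetraspanin that binds laminin-binding integrins, and the keratin gene Krt14 fell by 0.35, 0.33 and 0.78. Only 3 rose without Dnmt1chip/c tumour 2, Dnmt1chip/+ tumour 1 or Dnmt1chip/+ tumour 2, and 1 fell without Dnmt1chip/+ tumour 1 and 2 without Dnmt1chip/+ tumour 3. In these fits 21.1% to 27.5% of all genes passed in either direction, against 32% with all tumours.

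Of 25 basement membrane genes other than laminins 15 fell and none rose (median -0.29), and 10 to 14 fell without each tumour in turn. Nid1, the nidogen that joins laminin to type IV collagen, fell by 1.03, and Fras1, of the epithelial basement membrane, by 1.95. Bcam, a laminin receptor outside the integrin family, fell by 0.99, with values of -0.39, -0.45 and -0.69 in the Dnmt1chip/c tumours, against 0.45, 0.61 and 0.39 in the Dnmt1chip/+ tumours. Pxdn, the peroxidase that crosslinks type IV collagen, fell by 1.69, and Smoc1 and Sparc, matricellular proteins, by 1.00 and 0.91. Their adjusted p-values lay between 0.000495 (Pxdn) and 0.00443 (Sparc). The type IV collagen genes Col4a1 and Col4a2, named after their values were seen, fell by 0.74 and 0.61.

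Of 30 other integrin ligand genes 12 fell and 3 rose (median -0.23), with 9 to 15 lower and 2 higher without each tumour in turn. Npnt, the ligand of the Itga8 chain, fell by 1.13 and Tnc, a tenascin bound by the Itga9 chain, by 1.39. Thbs1, a thrombospondin, and Ccn1, a matricellular ligand of several integrins, fell by 0.68 and 1.27. Ccn3, of the same family, rose by 2.04 ± 0.37 (SE), with values of 0.56, 1.06 and 1.82 in the Dnmt1chip/c tumours, against -0.60, -1.51 and -0.56 in the Dnmt1chip/+ tumours. Lgals8, a galectin that binds integrins, rose by 0.27. Cdh1, the E-cadherin ligand of the Itgae chain and also an epithelial marker here, was the third to rise (0.18, adjusted p = 0.0479). Fbln1, Vwf and Egfl7 stand on a marker list as well as on 1 of these lists.

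**Figure D5:**
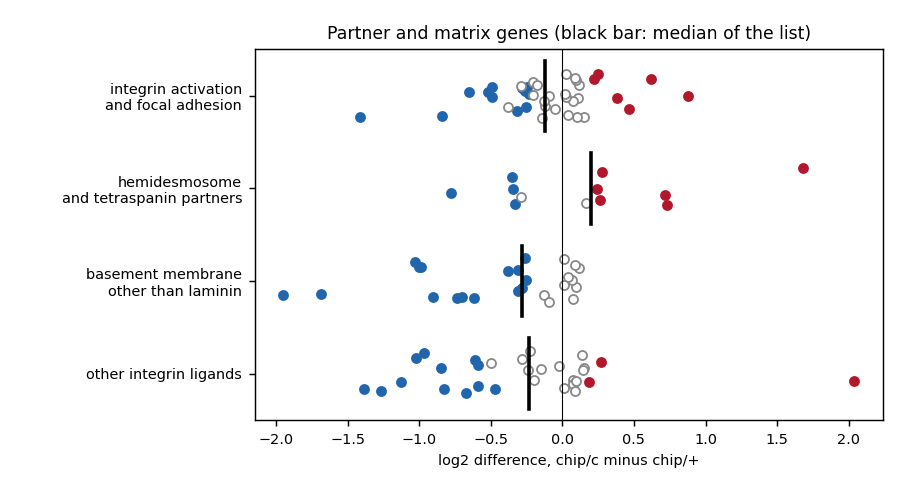
Differences of single genes on the log2 scale, Dnmt1chip/c minus Dnmt1chip/+, in 4 lists of integrin partners, basement membrane genes and ligands; filled red points rose, filled blue points fell, open points did not pass and the black bar is the list's median. The basement membrane list has 15 blue and no red points, and the hemidesmosome list 6 red and 4 blue.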

How the data were processed

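RNA of 6 colon tumours was hybridised to MoGene arrays, a name that some sample descriptions give. The authors deposited a table of 28856 probe sets, taken as log2 values (the base is inferred, as no label states it) and centred on each probe set's median, as the values themselves show. The array normalization is not given in the sources used here. Probe sets with 1 symbol in the platform annotation (21789) were averaged per gene, with symbols updated through RefSeq (GRCm38.p6), to 19938 genes; 3 probe sets that Itgam shares with another gene were not used. A gene was taken to lie at log2 values of 8 or above before centring where its values move in single-precision steps of that range.

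Members, roles and lists were chosen with earlier results of these data known. limma 3.58.1 in R 4.3.3 was fitted to all genes and all 6 tumours (lmFit, eBayes without trend, no block, two-sided, Benjamini-Hochberg). Intervals cover 95% and come from the same fit. The exact permutation test used the 20 assignments of 3 against 3. The named genes are every member, with values in each tumour for changed members and their partners; of each list, the 6 with the smallest p among changed genes; and of each marker list up to 3. Beyond that rule, tumour values of Itga1, the leukocyte integrins, Fermt2, Bcam and Ccn3 were given after they were seen. The same holds for the differences of Col4a1, Col4a2, Cdh1, Cldn4, Epcam, Krt18 and Fap. The fit was tested on simulated data. Alternatives were the replicate block, quantile normalization, centring of arrays, array weights, robust eBayes, filters, other thresholds and leaving out each tumour. Arrays carry no counts, and 6 arrays limit the precision.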

Additional observations from a re-analysis of the deposited data

How the results depend on the processing

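Of the 14 changed members 13 kept their call and direction in every alternative in which they were tested, including without each tumour in turn; Itgb4 lost its call with the replicate block (adjusted p = 0.0522), at an adjusted p under 0.01 and without Dnmt1chip/+ tumour 1. No label says whether the replicate numbers in the titles pair the tumours. Same-numbered tumours deviated from their group means with correlations of -0.29, -0.31 and -0.22. Between tumours of the 2 genotypes with different numbers the correlations ran from 0.05 to 0.29. Deviations within a genotype sum to 0, so these correlations cannot tell whether the numbers pair the tumours. The replicate block left 13 of the 14 calls and 34 of the 58 calls among the partner, basement membrane and ligand lists. At an adjusted p under 0.01 those lists held 29 calls. With genes at log2 values of 8 or above only, 2 stromal and platelet integrins passed, because Itga11 and Itga7 are not among those genes. Without single tumours, 9 to 15 members fell, 4 to 6 rose, and 0 to 3 leukocyte integrins passed. Of all genes 6380 passed, against 4257 with the replicate block, 3511 at an adjusted p under 0.01 and 4199 without Dnmt1chip/+ tumour 1.

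No changed member reversed. Among members that did not pass, 25 of the values under an alternative had the opposite sign, in 9 genes. Under quantile normalization Itgae, Itgb5 and Itgb1bp2 were at 0.012, 0.020 and 0.0061. With arrays centred on their median Itgb5 was at 0.0071. With array weights Itgae, Itga4, Itgal, Itgb5 and Lamc3 were at 0.043, 0.072, 0.038, 0.061 and -0.0074. Without each tumour in turn Itga4 ran from -0.39 to 0.13, Itgal from -0.33 to 0.11, Itgb7 from -0.074 to 0.12, Itgb5 from -0.095 to 0.12, Lamb3 from -0.056 to 0.064, Lamc3 from -0.055 to 0.20 and Itgb1bp1 from -0.034 to 0.044. The cause was not tested. Array weights added Itga8, Itgav, Itgb1 and Lama5 to the calls, and the fit over genes at log2 values of 8 or above added Itgb1. Centred values keep no signal level apart from the inference of log2 values of 8 or above. In genes outside that set a low group may lie at the array's floor, among them the changed members Itga11, Itga7 and Itgb3bp.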
